A study of Mus musculus with 2 samples.

Results

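Esr1, Pgr, Prlr, Foxa1, Gata3 and Cited1 are 6 of the 32285 genes counted in these single cell libraries of the mouse mammary gland. They are the receptors for oestrogen, progesterone and prolactin and the luminal regulators that act with them. The 6 were taken as a list of names, and they were kept out of the marker lists and of the genes used for clustering, so that no cell was assigned to a class by them. Each is described by its level in every cell class, by its detection and co-detection in single luminal cells, and by its level in both libraries.

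Mammary cells of adult wild-type female mice were sorted by FACS, taking CD45+ immune cells and CD31-TER119- cells, and sequenced by 10x Genomics. Ctrl came from control mice, and CL from mice given clodronate liposomes, which kill the macrophages that ingest them. The labels give 9 to 10 weeks as the age in both groups and the protocol gives 8 to 10 weeks. There was 1 library per group, with 118743318 unique molecular identifiers (UMIs, which count captured transcript molecules) in Ctrl and 155765480 in CL, so no difference between the libraries has a replicate check and none was tested. How many mice were pooled, and in what proportion the sorted fractions were mixed, was not stated in the sources used here.

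After filtering, 5929 Ctrl and 8771 CL cells were kept. Macrophage-like cells were 57 of 5929 (0.961%) in Ctrl and 237 of 8771 (2.70%) in CL. The treatment is given to deplete macrophages and this share runs the other way, so CL is called the library labelled CL below. Basal cells were 6.83% of the cells in Ctrl and 5.06% in CL, and whether these shares follow the treatment was not tested. The larger of the macrophage-like clusters, whose leading genes included Lyz2 and Tyrobp but none of the C1q genes, held 17 and 195 cells. All 9 macrophage markers, C1q genes included, were nevertheless raised in both clusters. The other, with C1qa, C1qb and C1qc among its leading genes, held 40 and 42, which were 0.675% and 0.479% of the cells, so the higher share rests on the first. Among the listed cell barcodes, 18 stood on both lists.

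Oestrogen receptor alpha, the product of Esr1, is a nuclear receptor found in the luminal cells that sense ovarian hormones. It induces the progesterone receptor, Pgr, in the same cells, and these cells pass the signal on to their neighbours through secreted factors such as amphiregulin, RANKL and Wnt4. Prlr is the cell surface receptor for prolactin and signals through Jak2 and Stat5. Foxa1 is a forkhead factor that opens chromatin for oestrogen receptor alpha. Gata3 is a zinc finger factor needed for luminal identity in the mammary gland and for several lineages of T cells and innate lymphoid cells. Cited1 is a transcriptional cofactor that acts with oestrogen receptor alpha in mammary ducts.

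On mouse build GRCm38 with GENCODE release M21 all 6 are protein-coding genes, and the deposited identifiers matched for 6 of 6. Esr1 (ENSMUSG00000019768) lies at chr10:4611593-5005614 on the plus strand. Pgr (ENSMUSG00000031870) lies at chr9:8899833-8968611 on the plus strand and Prlr (ENSMUSG00000005268) at chr15:10177238-10349180 on the plus strand. Foxa1 (ENSMUSG00000035451) lies at chr12:57540628-57546916 on the minus strand, Gata3 (ENSMUSG00000015619) at chr2:9857078-9890034 on the minus strand and Cited1 (ENSMUSG00000051159) at chrX:102247381-102252181 on the minus strand.

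Promoter windows are shown for 4 members. Pgr and Gata3 were the members past the fold between the libraries in hormone-responsive cells, and the windows of Prlr and Foxa1 were the only ones with a match to the forkhead letters. The sequences are from RefSeq on GRCm38.p6, 300 bases each and 5′ to 3′ on the gene's strand, with the matched letters in capitals.
Pgr: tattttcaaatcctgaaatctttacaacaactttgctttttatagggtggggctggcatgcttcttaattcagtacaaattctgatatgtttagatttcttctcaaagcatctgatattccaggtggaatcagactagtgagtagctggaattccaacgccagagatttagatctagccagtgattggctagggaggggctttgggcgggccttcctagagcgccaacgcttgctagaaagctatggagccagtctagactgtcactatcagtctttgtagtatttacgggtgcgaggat
Prlr: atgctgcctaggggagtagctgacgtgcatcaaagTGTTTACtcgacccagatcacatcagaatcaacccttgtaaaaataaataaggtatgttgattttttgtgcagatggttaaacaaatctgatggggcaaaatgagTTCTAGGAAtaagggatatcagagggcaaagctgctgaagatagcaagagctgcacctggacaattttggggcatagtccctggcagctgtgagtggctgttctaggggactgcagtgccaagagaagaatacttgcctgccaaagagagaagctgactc
Foxa1: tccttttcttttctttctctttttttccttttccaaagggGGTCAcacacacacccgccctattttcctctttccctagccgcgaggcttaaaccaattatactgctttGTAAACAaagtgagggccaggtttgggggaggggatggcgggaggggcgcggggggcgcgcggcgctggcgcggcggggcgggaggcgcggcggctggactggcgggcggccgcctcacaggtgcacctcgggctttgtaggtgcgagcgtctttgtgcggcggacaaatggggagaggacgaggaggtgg
Gata3: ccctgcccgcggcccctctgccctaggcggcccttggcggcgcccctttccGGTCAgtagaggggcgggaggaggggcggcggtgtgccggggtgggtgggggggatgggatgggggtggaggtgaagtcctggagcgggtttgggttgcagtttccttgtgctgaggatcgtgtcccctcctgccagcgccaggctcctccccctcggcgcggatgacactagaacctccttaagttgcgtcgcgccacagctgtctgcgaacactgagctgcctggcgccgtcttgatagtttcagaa
They lie at chr9:8899583-8899882 on the plus strand (Pgr), chr15:10223656-10223955 on the plus strand (Prlr, the second of 3 windows), chr12:57546062-57546361 on the minus strand (Foxa1) and chr2:9878551-9878850 on the minus strand (Gata3).

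Both strands of the 11 windows of the 6 genes were searched for 5 motifs, and positions are counted from the annotated start. The forkhead letters TGTTTAC stood at -215 in the Prlr window and, on the reverse strand, at -141 in the Foxa1 window, and 3.65% of all 32851 promoter windows hold them. The STAT letters TTCNNNGAA stood at -110 in the same Prlr window and at -188 in a window of Esr1, against 8.30% of all windows. The letters GGTCA, an arm of the oestrogen response element, stood at -210 in Foxa1 and -199 in Gata3 and in windows of Esr1 and Cited1, and 40.5% of all windows hold them. The whole palindromic oestrogen response element, which contains that arm and is present in 0.0700% of windows, and the GATA letters AGATAA (11.2%) had no match in the 11 windows. The Pgr window held none of the 5 motifs. A match describes letters only, and 3′ counting does not tell which promoter of Prlr, Esr1 or Cited1 was used.

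Cells were assigned to classes by markers other than these genes, and class names stand for the "-like" populations. Hormone-responsive luminal cells numbered 2081 in Ctrl and 2596 in CL, secretory-lineage luminal cells (luminal and alveolar progenitors) 2664 and 3917, basal cells 405 and 444, fibroblasts 257 and 271, and T and NK cells 213 and 734. Median depth was 20039 and 16858 UMIs in hormone-responsive cells, 9695.5 and 9161 in secretory-lineage cells, 8027 and 5832 in basal cells and 4872 and 4458 in T and NK cells. Levels are in CPM, the UMIs of a gene per 1000000 UMIs of the class. Intervals are 95% and cover counting error only, and levels are compared between classes and libraries, not between genes.

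Among the classes, all 6 genes had their highest level in hormone-responsive luminal cells in both libraries. Of the UMIs found in kept cells of Ctrl, this class held 84.7% for Esr1, 90.7% for Pgr, 90.4% for Prlr, 85.1% for Foxa1 and 92.2% for Cited1, but 70.7% for Gata3. In the library labelled CL the shares were 78.1%, 81.2%, 81.0%, 73.4% and 86.6%, and 54.4% for Gata3. Gata3 was thus the member spread furthest over other classes. An unnamed cluster with markers of both luminal classes (159 and 436 cells, mean doublet score 0.149) lay between them, for example with Prlr at 2402 and 1925 CPM and Pgr at 121 and 78.0 CPM, and was not used in either class.

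The oestrogen receptor gene Esr1 was at 111 CPM (108 to 114) in hormone-responsive cells of Ctrl and 106 CPM (103 to 109) in those of CL. Fibroblasts came next among the named classes, with 50.8 CPM (41.4 to 61.7) in Ctrl and 29.6 CPM (22.0 to 39.1) in CL, and their intervals overlapped those of endothelial cells (40.9 and 22.6 CPM). Endothelial Esr1 rested on 11 UMIs in each library, of which 3 cells carried 54.5% and 72.7%, and was at 20.2 and 7.78 CPM without them. Secretory-lineage cells had 10.5 and 8.32 CPM, basal cells 10.2 and 9.02 CPM and T and NK cells 7.38 and 4.18 CPM. These intervals overlapped in Ctrl, and in CL the secretory-lineage interval stood above that of T and NK cells. Hormone-responsive cells therefore stood 10.6-fold above secretory-lineage cells in Ctrl and 12.8-fold in CL. The 3 fibroblasts richest in Esr1 held 15.8% and 20% of its fibroblast UMIs, and without them the levels were 43.6 and 24.6 CPM.

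Pgr, the progesterone receptor, was at 175 CPM (172 to 179) in hormone-responsive cells of Ctrl and at 107 CPM (104 to 110) in those of CL. Secretory-lineage cells had 6.26 and 4.43 CPM, which is 28.0-fold and 24.2-fold lower. This was within the interval of T and NK cells (3.69 and 3.66 CPM), the class used as background. That interval rests on 4 and 14 UMIs in shallower cells, so it cannot decide. Secretory-lineage expression of Pgr was therefore neither read nor excluded. Basal cells had 15.2 CPM (11.5 to 19.7) in Ctrl and 9.69 CPM (6.49 to 13.9) in CL, above both secretory-lineage and T and NK cells. In Ctrl the basal interval overlapped that of fibroblasts (8.55 CPM), and in CL basal cells and fibroblasts (9.48 CPM) overlapped as well.

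Prlr, the prolactin receptor, was at 3178 CPM in hormone-responsive cells of Ctrl and 2588 CPM in those of CL. Secretory-lineage cells had 128 and 115 CPM, so that hormone-responsive cells stood 24.9-fold and 22.5-fold higher. Basal cells had 75.4 and 91.8 CPM, against 72.9 and 70.6 CPM in T and NK cells, the class used as background. Whether T and NK cells express Prlr themselves was not tested. These intervals overlapped in Ctrl, but in CL the basal one (81.3 to 103) stood above that of T and NK cells (62.4 to 79.5). The 3 basal cells richest in Prlr carried 24.8% of its basal UMIs in Ctrl and 37.8% in CL, and without them the levels were 57.6 and 57.9 CPM, at or below the T and NK intervals. The T and NK intervals were over all cells of that class, so this comparison of a trimmed with an untrimmed class cannot decide. Basal expression of Prlr was therefore neither read nor excluded. Fibroblasts had 123 and 119 CPM, but 3 cells carried 44.5% and 62.0% of those UMIs and the levels were 70.6 and 47.4 CPM without them. Endothelial cells of CL had 442 CPM, of which 3 of 60 cells carried 88.4%, and the level was 67.8 CPM without those cells.

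Foxa1, the forkhead factor, was at 94.6 CPM (91.8 to 97.6) in hormone-responsive cells of Ctrl and 88.0 CPM (85.4 to 90.7) in those of CL. Secretory-lineage cells followed with 11.8 CPM (10.6 to 13.1) and 15.0 CPM (13.9 to 16.2), which is 8.03-fold and 5.87-fold lower. Basal cells had 2.67 and 4.34 CPM and T and NK cells 5.53 and 3.40 CPM, and these intervals overlapped.

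Gata3 had a different order. It was at 197 CPM (193 to 201) in hormone-responsive cells of Ctrl and 130.1 CPM (127 to 133) in those of CL. T and NK cells had 133 CPM (112 to 156) and 112 CPM (101 to 123), basal cells 112 CPM (102 to 123) and 90.8 CPM (80.4 to 102), and secretory-lineage cells 70.4 CPM (67.4 to 73.4) and 73.3 CPM (70.8 to 75.8). T and NK cells and basal cells overlapped in both libraries, whereas secretory-lineage cells were below both classes. The 3 T and NK cells richest in Gata3 carried 22.9% and 10.0% of its UMIs there, and without them the levels were 104 and 102 CPM. A T and NK cluster led by Ctla2a and Srgn had 336 CPM (255 to 436) in 37 Ctrl cells, above the hormone-responsive class. It had 140 CPM (117 to 167) in 191 CL cells. Fibroblasts had 12.1 and 9.48 CPM and macrophages 9.16 and 9.02 CPM, with overlapping intervals. Hormone-responsive cells were 2.80-fold above secretory-lineage cells in Ctrl and 1.78-fold in CL, the smallest of the 6 folds in either library.

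Cited1, the cofactor, was at 975 CPM in hormone-responsive cells of Ctrl and 1350.0 CPM in those of CL. In secretory-lineage cells it was at 49.4 and 60.9 CPM, 19.7-fold and 22.2-fold lower. T and NK cells had 63.7 and 77.9 CPM, which overlapped the secretory-lineage level in Ctrl and stood above it in CL. Basal cells (45.7 and 63.8 CPM) were also at or below the T and NK level, so Cited1 outside the hormone-responsive class was not read as expression. The values of 101 CPM in fibroblasts and 230.3 CPM in endothelial cells of CL were carried to 42.1% and 85.7% by 3 cells each, and without them were 60.9 and 40.2 CPM.

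**Figure D1:**
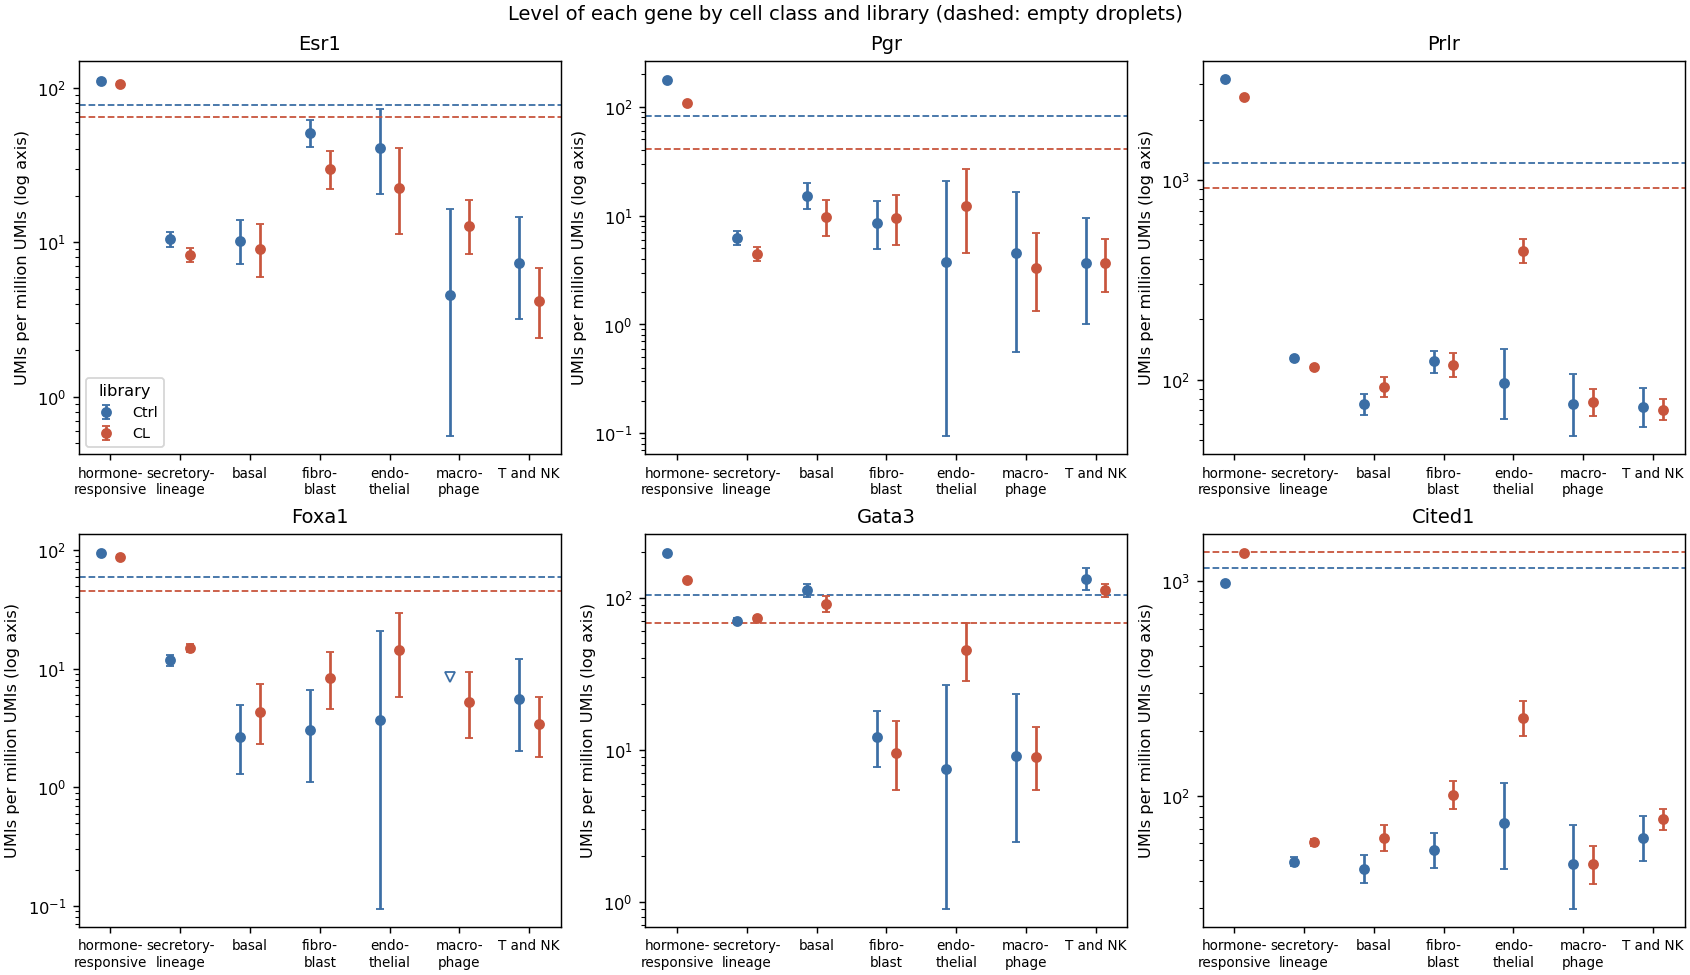
Level of each gene in CPM (log axis) in 7 cell classes of Ctrl (blue) and CL (red), with 95% counting intervals, a triangle for the upper limit of a class with 0 UMIs, and dashed lines for the level in empty droplets. Hormone-responsive cells are highest in each panel, and only Gata3 has T and NK and basal cells at or above the dashed lines.

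Droplets of 100 to 300 UMIs, which were taken to hold free RNA of the suspension and no cell, were measured in the same way (54275 in Ctrl and 55973 in CL). They held Esr1 at 77.8 and 64.6 CPM, Pgr at 81.8 and 41.0 CPM, Prlr at 1213 and 908 CPM, Foxa1 at 60.1 and 45.0 CPM, Gata3 at 104 and 67.8 CPM and Cited1 at 1150.1 and 1372 CPM. Hormone-responsive cells stood 1.42-fold to 2.85-fold above these droplets for 5 members. Cited1 in hormone-responsive cells was 0.848 and 0.984 times its droplet level. T and NK cells were at 0.0451 to 0.0948 times the droplet level for the members other than Gata3, and for Gata3 at 1.28 and 1.65 times.

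From Ctrl to CL the droplets were lower in 5 members and higher in Cited1, as the hormone-responsive cells were. The part of free RNA in the small counts of Prlr and Cited1 in secretory-lineage, basal, stromal and immune cells was not tested.

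Detection was compared between the libraries after every hormone-responsive cell had been thinned to 6865 UMIs, which left out 183 shallower cells in Ctrl and 260 in CL. Prlr was found in 99.9% of 1898 Ctrl and 99.9% of 2336 CL cells. Esr1 was found in 51.9% (49.6 to 54.2) and 50.8%, and Foxa1 in 43.6% and 42.0%, with overlapping intervals for both genes. Pgr was found in 63.1% and 46.8%, Gata3 in 61.5% and 52.0%, and Cited1 in 80.7% and 90.6% of the cells, and these intervals did not overlap.

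Without thinning the shares were 79.8% and 76.5% for Esr1, 84.2% and 68.1% for Pgr, 99.3% and 99.0% for Prlr, 72.4% and 69.3% for Foxa1, 83.1% and 72.5% for Gata3, and 89.8% and 94.1% for Cited1. Thinning is a random draw, and the shares at 6865 UMIs come from 1 draw, so it was repeated 20 times. The mean over these draws was 62.3% and 45.5% for Pgr, 63.0% and 51.3% for Gata3 and 80.5% and 89.4% for Cited1, and their intervals stayed apart in each of the 20. With the clusters that lay mostly in 1 library left out, the means were 51.1% and 41.7% for Pgr and 64.7% and 57.0% for Gata3. Those of Cited1 were then 79.4% and 87.0%. The intervals of the 3 genes were apart in 19, 18 and 20 of these draws, and those of Gata3 in 8 of 20 at 12254 UMIs. Over the whole class Esr1 was lower in CL in 7 draws and higher in 13, and Foxa1 lower in 16 and higher in 4. The intervals overlapped in each, so no direction was read there for either. With the same clusters left out, Esr1 was lower in CL in each of 20 draws (a mean of 51.5% and 48.5%), with intervals apart in 1. Foxa1 was then lower in 18 and higher in 2, with intervals apart in 0. In T and NK cells, at 2320 UMIs, the shares were 16.8% and 15.0% for Prlr, 16.8% and 16% for Cited1 and 16.8% and 19.3% for Gata3. Those of Esr1, Pgr and Foxa1 were between 0.524% and 2.09%.

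Secretory-lineage cells, thinned to 5236 UMIs with 242 and 391 cells left out, had Esr1 in 5.04% and 4.00% of 2422 and 3526 cells, Pgr in 3.22% and 2.16% and Foxa1 in 5.82% and 6.72%. Gata3 was found in 26.9% and 26.9%, Cited1 in 20.3% and 23.6%, and Prlr in 42.1% and 35.0%. With all classes thinned to 1497 UMIs, Prlr was found in 96.0% and 94.3% of hormone-responsive cells, 16.9% and 12.6% of secretory-lineage cells and 11.2% and 7.81% of T and NK cells. Esr1 was found at that depth in 16.3% and 15.9%, 1.95% and 1.09%, and 0.976% and 0.710% of these classes. Secretory-lineage cells were thus much closer to the background class than to hormone-responsive cells for both receptors.

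**Figure D2:**
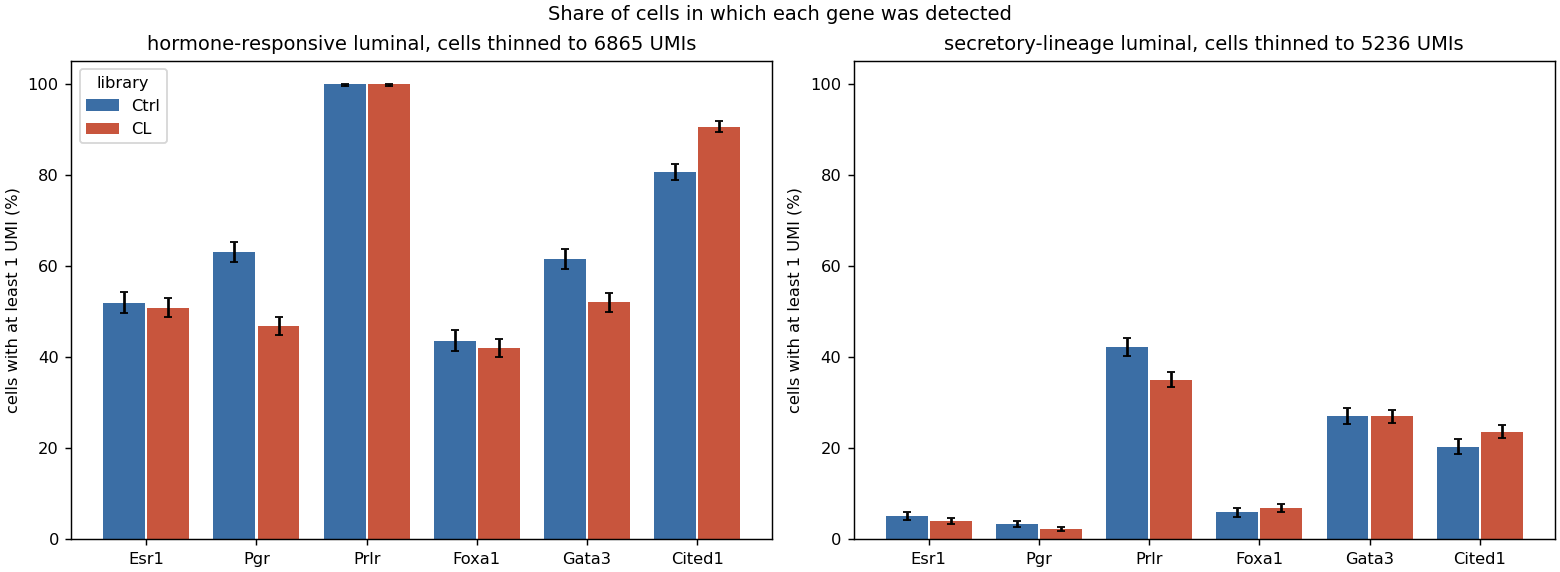
Percent of cells with at least 1 UMI of each gene in hormone-responsive and secretory-lineage luminal cells of Ctrl (blue) and CL (red), each class thinned to a fixed depth, with 95% Clopper-Pearson intervals. In hormone-responsive cells Pgr and Gata3 are found in fewer and Cited1 in more cells of CL, whereas the intervals of Esr1, Prlr and Foxa1 overlap.

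The receptors were next followed in single cells. After thinning, 34.3% (32.2 to 36.5) of hormone-responsive Ctrl cells held UMIs of Esr1, Pgr and Prlr together, and 25.3% (23.6 to 27.2) of CL cells did. Cells with Pgr and Prlr but no Esr1 were 28.7% and 21.4%, cells with Esr1 and Prlr but no Pgr were 17.6% and 25.5%, and cells with Prlr alone were 19.3% and 27.7%. Over the whole class the combinations with Pgr were less frequent in the library labelled CL and those with Prlr but without Pgr were more frequent, with intervals apart in each of 20 further draws. The mean over those draws was 31.9% and 24.9% for the 3 receptors together, and the 34.3% printed above lies past the highest of them (33.9%). Not all of this held without the clusters that lay mostly in 1 library. The 3 receptors together were then found in a mean of 27.1% and 22.0%, with intervals apart in 9 of the 20 draws. Pgr and Prlr without Esr1 were found in 23.9% and 19.6%, apart in 7 draws, and Esr1 and Prlr without Pgr in 24.3% and 26.5%, apart in 0. Prlr alone was found in 24.5% and 31.7%, apart in 19 draws. The clusters left still differed in weight, since the Wfdc2 cluster gave 204 of 922 Ctrl and 566 of 1241 CL cells. Within each of them, in 1 draw, the intervals of Prlr alone overlapped (24.8% and 27.3% in the Fxyd2 cluster, 30.9% and 36.6% in the Wfdc2 cluster, 39.7% and 43.4% in dividing cells). The Fgb and Upk3a cluster, which was left out there, had the same direction, but beyond counting error. Prlr alone was found in 17.4% of its Ctrl and 27.2% of its CL cells, with intervals apart, so a difference within a cluster was not absent throughout. In secretory-lineage cells none of the 3 receptors was found in 53.8% and 61.3%, and Prlr alone in 38.1% and 32.6%.

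A gene missing from a thinned cell can still be expressed, so co-detection was set beside the product of the single shares. Esr1 and Pgr were found together in 34.3% of hormone-responsive Ctrl cells, against a product of 32.7%, and in 25.3% of CL cells, against 23.8%. For Foxa1 and Gata3 the observed share was 1.06 times the product in both libraries, and for Pgr and Cited1 0.975 and 0.991 times. Over all 15 pairs this ratio, from the same single draw, was between 0.975 and 1.07. For the 5 pairs with Prlr, which was found in nearly every cell, the ratio is fixed near 1. The 10 other pairs were found together about as often as the product of their shares.

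The number of members found per hormone-responsive cell had a median of 4 in both libraries. All 6 were found in 8.80% (7.56 to 10.2) of Ctrl and 5.57% (4.67 to 6.57) of CL cells. Without the clusters mostly of 1 library the shares were 7.38% (5.77 to 9.26) and 6.37% (5.07 to 7.87), which overlapped, and in the cluster led by Fxyd2 they were 6.20% and 7.23%. In secretory-lineage cells no member was found in 29.1% and 33.0% and exactly 1 in 44.5% and 41.5%.

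**Figure D3:**
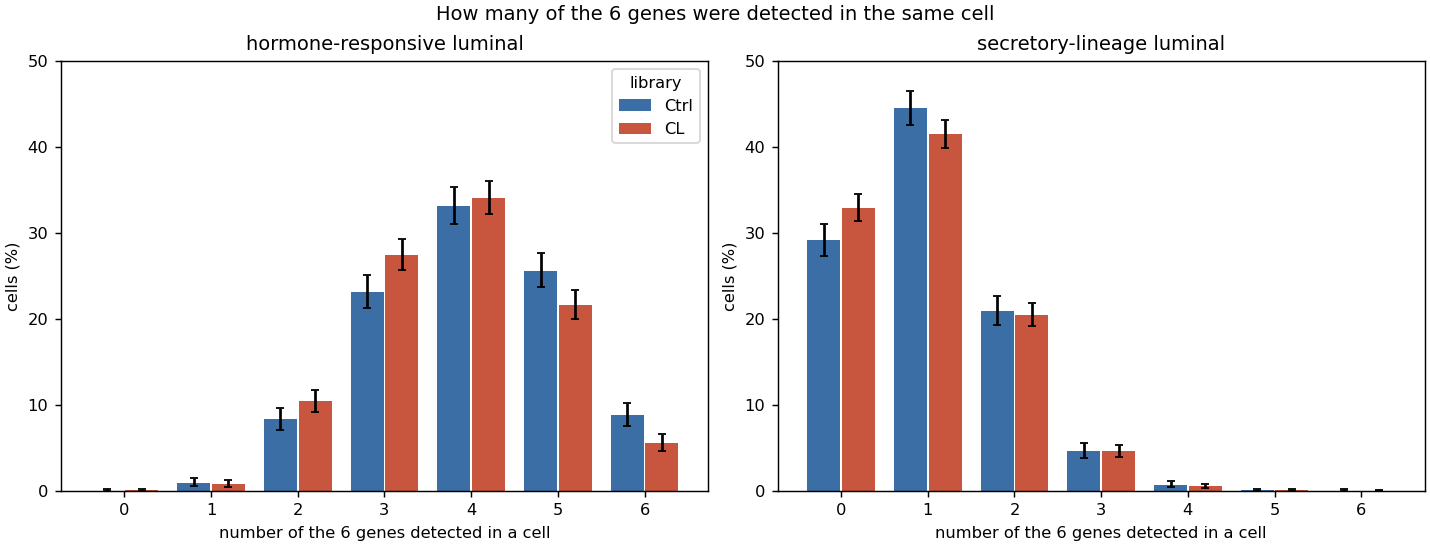
Percent of thinned cells (vertical axis) by the number of the 6 genes found in the cell (horizontal axis), in hormone-responsive and secretory-lineage luminal cells of Ctrl (blue) and CL (red), with 95% Clopper-Pearson intervals. Hormone-responsive cells centre on 4 genes and secretory-lineage cells on 1.

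The levels were then compared between the libraries. Over the whole hormone-responsive class, the log2 ratio of CL over Ctrl was -0.71 (-0.76 to -0.66) for Pgr, -0.60 (-0.65 to -0.55) for Gata3, -0.30 (-0.31 to -0.29) for Prlr, -0.10 (-0.17 to -0.04) for Foxa1, -0.06 (-0.12 to -0.0027) for Esr1 and 0.47 (0.45 to 0.49) for Cited1. The Esr1 interval included 0 with a minimum of 1000 genes per cell (-0.04, -0.10 to 0.02) and with a mitochondrial limit of 5% (-0.01, -0.08 to 0.05). Past a fold of 0.5 on the log2 scale, 2 of the 6 genes, Pgr and Gata3, were lower in the library labelled CL, against 5.57% of the 13087 genes with at least 50 UMIs in this class. No member was higher by that fold, against 4.23% of the genes. Without the clusters mostly of 1 library, Pgr (-0.47) and Gata3 (-0.497) both fell short of that fold. The median ratio was -0.20 over the members and -0.03 over all genes. Of all genes, 3.16% had a ratio as low as that of Pgr, 4.19% as low as that of Gata3 and 12.8% as low as that of Prlr. Cited1 was at or above 95.3% of genes, while Foxa1 and Esr1 were at 35.2% and 43.3%.

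**Figure D4:**
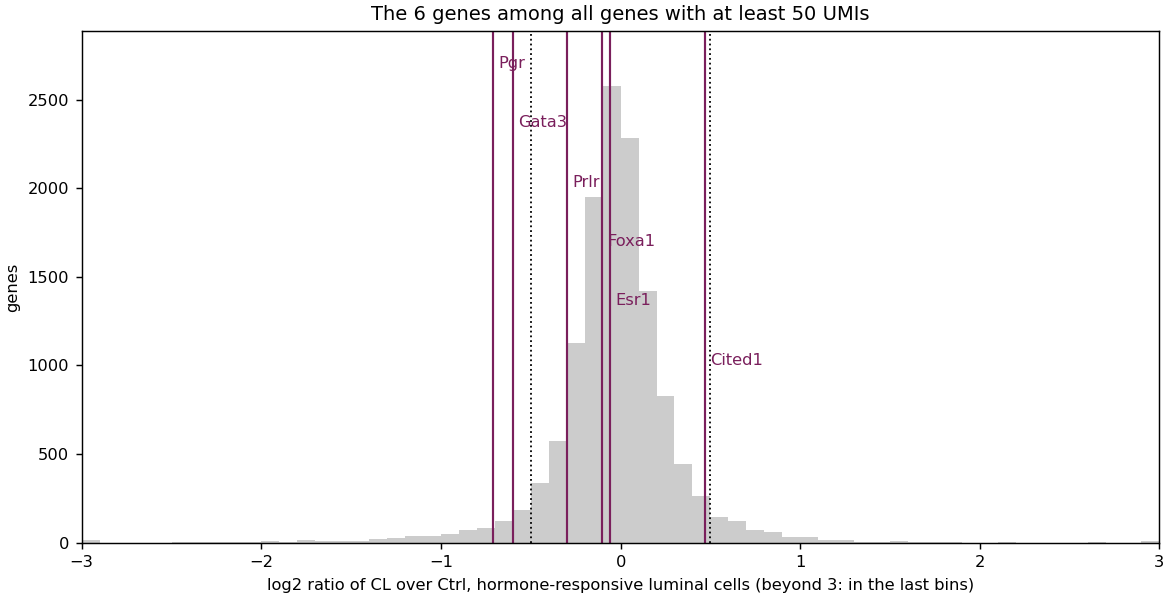
Number of genes (vertical axis) by log2 ratio of CL over Ctrl in hormone-responsive luminal cells (horizontal axis), for the 13087 genes with at least 50 UMIs, with the 6 members as vertical lines and the fold of 0.5 in either direction as dotted lines. Pgr and Gata3 lie beyond the lower dotted line, and Cited1 lies just inside the upper one.

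The class was made of 4 main clusters, and different ones held most of it in each library. The cluster led by Gpx3 and Aoc1 held 37.7% of hormone-responsive Ctrl cells and 1.31% of CL cells (785 and 34 cells). The cluster led by Fgb and Upk3a held 13.7% and 45.3% (285 and 1176 cells), the one led by Wfdc2 11.6% and 25.4% (241 and 659) and the one led by Fxyd2 33.0% and 25.8% (687 and 670). Dividing cells of the class numbered 83 and 57.

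Pgr was highest in the Gpx3 and Aoc1 cluster, at 259 CPM in Ctrl and 287 CPM in CL, a log2 ratio of 0.14 (-0.09 to 0.37). It was at 146 and 122 CPM (-0.26) in the Fgb and Upk3a cluster, 142 and 107 CPM (-0.41) in the Fxyd2 cluster and 88.9 and 74.7 CPM (-0.25) in the Wfdc2 cluster. None of the 4 clusters had a ratio as low as the whole class (-0.71), and with the clusters given the same weight in both libraries the ratio was -0.16. The cluster richest in Pgr was the one that made up 37.7% of the class in Ctrl and 1.31% in CL.

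Gata3 was lower in the library labelled CL in all 4 clusters, by similar amounts. It had 145 and 107 CPM in the Fgb and Upk3a cluster (-0.44, -0.55 to -0.32), and 217 and 151 CPM in the Fxyd2 cluster (-0.52, -0.61 to -0.44). In the Wfdc2 cluster it had 211 and 149 CPM (-0.51, -0.62 to -0.39), and in the Gpx3 and Aoc1 cluster 194 and 127 CPM (-0.61, -0.96 to -0.28). With equal cluster weights the ratio was -0.50. In dividing hormone-responsive cells Gata3 was at 187 and 154 CPM, a smaller difference (-0.28, -0.49 to -0.07).

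Cited1 was higher in the library labelled CL in the same 4 clusters, by unequal amounts. It was at 1091 and 1355 CPM in the Fgb and Upk3a cluster (0.31), 684 and 750.1 CPM in the Fxyd2 cluster (0.13), 1728 and 1920.3 CPM in the Wfdc2 cluster (0.15) and 783 and 1545 CPM in the Gpx3 and Aoc1 cluster (0.98). Its level differed more between the Fxyd2 and Wfdc2 clusters of a library than between the libraries in either cluster. In dividing hormone-responsive cells Cited1 had the opposite direction, with 2035 CPM in Ctrl and 1633 CPM in CL (-0.32, -0.38 to -0.25).

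Prlr ratios were -0.23, -0.21 and -0.13 in the Fgb and Upk3a, Fxyd2 and Wfdc2 clusters and -0.02 (-0.09 to 0.04) in the Gpx3 and Aoc1 cluster. In dividing cells Prlr was higher in the library labelled CL (1707 and 1871 CPM, 0.13). Foxa1 had ratios between -0.07 and -0.04 within counting error in 3 clusters and -0.36 (-0.51 to -0.21) in the Wfdc2 cluster. Esr1 had -0.16, -0.06 (-0.16 to 0.04) and -0.40 in the same order and 0.72 (0.41 to 1.02) in the Gpx3 and Aoc1 cluster, from 98.6 to 163 CPM. That value rests on 96 UMIs in 34 CL cells. The direction for Esr1 in the whole class therefore did not hold in each cluster.

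In secretory-lineage cells no member passed the fold, either lower (5.85% of 12444 genes) or higher (3% of genes) in the library labelled CL, and the median ratio was -0.05 for the members and -0.04 for all genes. The ratio was -0.33 for Esr1, -0.499 (-0.79 to -0.20) for Pgr, -0.15 (-0.21 to -0.09) for Prlr, 0.35 (0.16 to 0.54) for Foxa1, 0.06 (-0.02 to 0.14) for Gata3 and 0.30 (0.21 to 0.39) for Cited1. The levels of Pgr and Cited1 in this class were within or below the intervals of T and NK cells. Foxa1 had ratios of 0.07 to 0.42 in 4 secretory-lineage clusters, each within counting error. The fifth, led by Aldh1a3, Ltf and Cd74, held 23 Ctrl and 918 CL cells and had 2 UMIs of Foxa1 in Ctrl and a level of 19.9 CPM in CL, against 11.1 to 14.7 CPM in the 4 other clusters of that library. Gata3 went both ways among these clusters, from -0.30 (-0.51 to -0.10) to 0.58 (0.32 to 0.84).

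In basal cells 5 members had at least 50 UMIs over both libraries. Of these 1, Pgr, was lower by the fold in the library labelled CL (15.2 and 9.69 CPM, -0.65, -1.35 to 0.02), against 8.76% of 8348 genes, and its interval included 0. None was higher by the fold (3.94% of genes), and the median was -0.16 for the members and -0.07 for all genes. Prlr had a ratio of 0.29 (0.04 to 0.53), but without the 3 richest cells of each library its levels were 57.6 and 57.9 CPM. Gata3 had a ratio of -0.30 (-0.53 to -0.08) and Cited1 of 0.48 (0.18 to 0.79), from 45.7 to 63.8 CPM, which also overlapped the T and NK level. In fibroblasts Esr1 was at 50.8 and 29.6 CPM (-0.78, -1.30 to -0.28), from 101 and 50 UMIs.

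**Figure D5:**
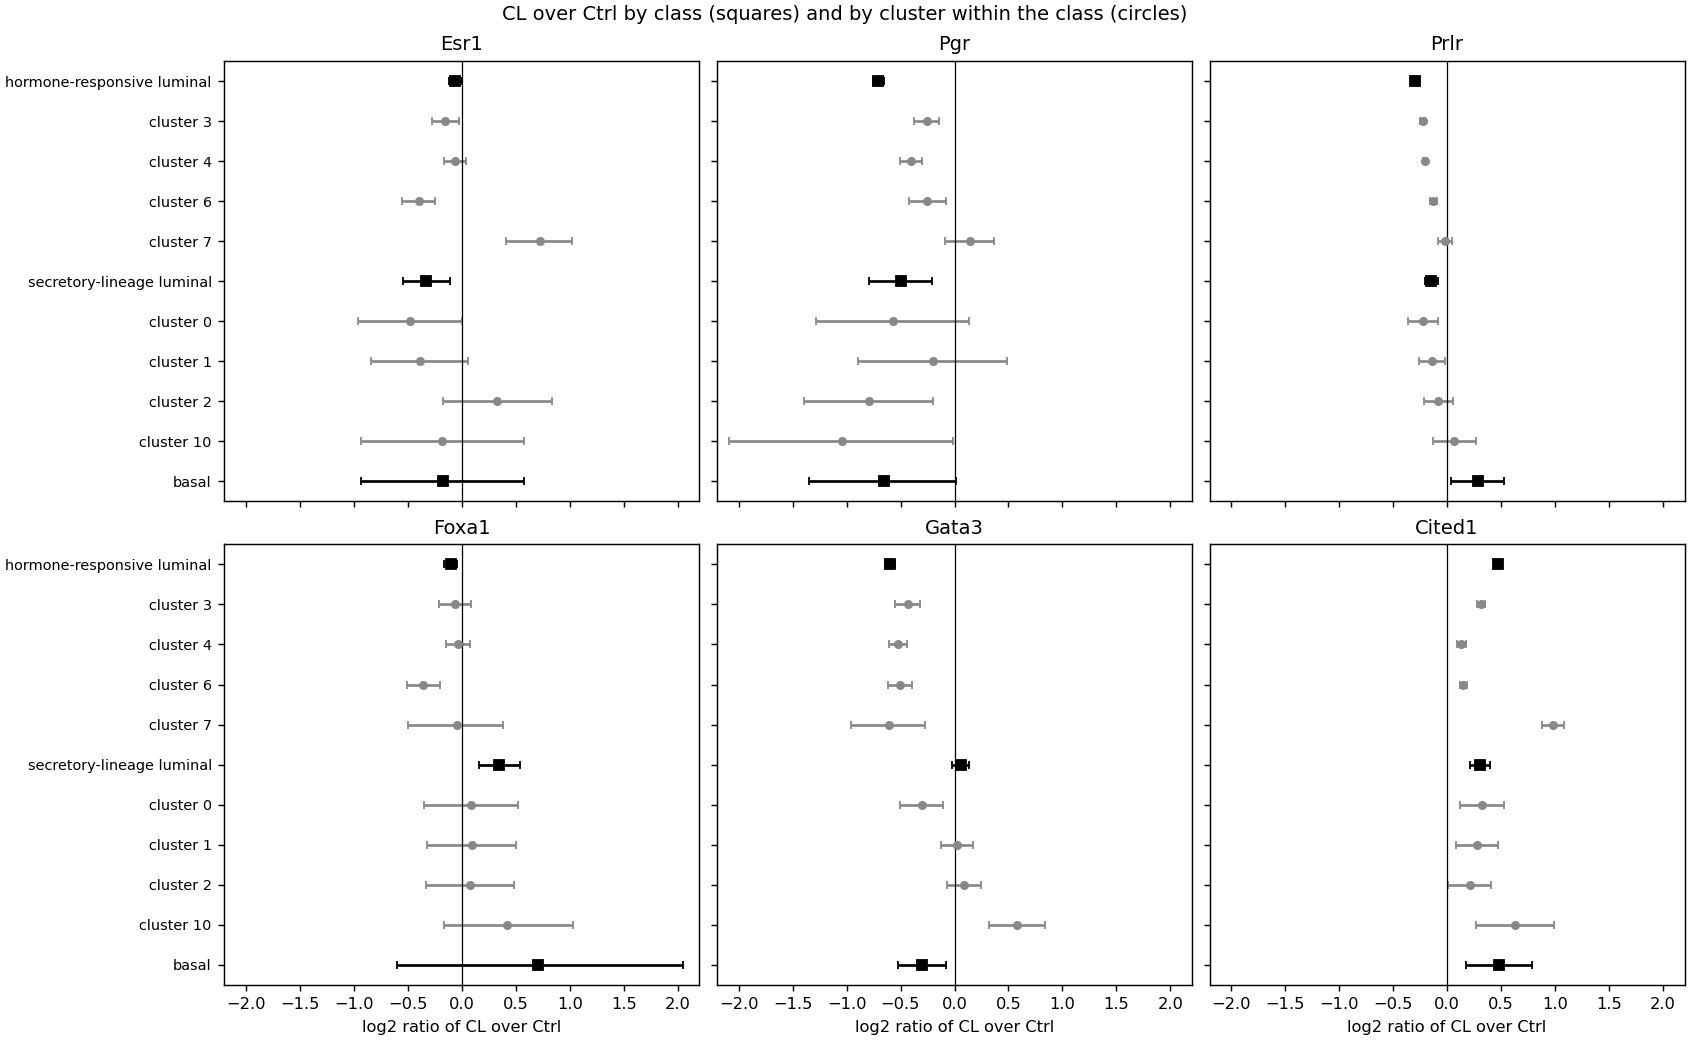
Log2 ratio of CL over Ctrl (horizontal axis) of each gene in 3 classes (black squares) and in 4 clusters of each luminal class (grey circles), with 95% counting intervals. Cluster 3 is the Fgb and Upk3a cluster, 4 the Fxyd2 cluster, 6 the Wfdc2 cluster and 7 the Gpx3 and Aoc1 cluster. Gata3 lies left of 0 in all 4 of these, whereas the Pgr square of the hormone-responsive class lies left of the 4 circles of that class. Cluster 5 of the secretory lineage, with 23 Ctrl cells, is not drawn.

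The other genes of the pathway were followed as a list of 32, of which 27 had at least 50 UMIs in hormone-responsive cells. Past the fold, 3 of the 27, Greb1, Stat5a and Stat5b, were lower in the library labelled CL (5.57% of all genes), and none was higher (4.23% of all genes). Greb1, an oestrogen-induced gene, was at 16.7 and 5.15 CPM (-1.69, -1.91 to -1.49). Stat5a and Stat5b, the transcription factors activated through the prolactin receptor, were at 100.4 and 58.1 CPM (-0.79) and 22.5 and 15.2 CPM (-0.57). These are ratios over the whole class, and those within its clusters differed. Greb1 was at -1.28 and -0.94 in the Fgb and Upk3a and Fxyd2 clusters, but at 0.18 (-0.74 to 1.18) in the Wfdc2 cluster and -0.61 (-1.53 to 0.18) in the Gpx3 and Aoc1 cluster. Stat5a was at -0.72 in the Fgb and Upk3a cluster and between -0.33 and -0.20 in the 3 others, short of the fold. Stat5b was at -0.53 in the Fgb and Upk3a, -0.22 in the Fxyd2, -0.54 in the Wfdc2 and -1.41 in the Gpx3 and Aoc1 cluster, the last from 6 UMIs in CL. The median over the prolactin signalling genes was -0.27, with Jak2, the kinase bound to the receptor, at 53.7 and 53.0 CPM (-0.02). Over the whole class the feedback inhibitors Socs2 (-0.31), Cish (-0.22) and Socs3 (-0.17) were lower by less than the fold. In the Fgb and Upk3a, Fxyd2, Wfdc2 and Gpx3 and Aoc1 clusters, in that order, Socs3 was at -0.28, -0.01, -0.06 and 0.12. Socs2 was past counting error in the Fgb and Upk3a cluster alone (-0.34). Cish was at -0.37, -0.35, -0.71 and -0.31 in the same order, past the fold in the Wfdc2 cluster. The last value rests on 5 UMIs in CL and was within counting error (-1.96 to 0.94).

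The targets of ovarian hormones did not share a direction over the whole class. Areg, which encodes amphiregulin, was at 2782 and 2793 CPM (0.01, -0.01 to 0.02), and Wnt4, a progesterone target, at 330.2 and 367 CPM (0.15). Wnt5a was at 104 and 74.9 CPM (-0.47) and Stc2 at 235 and 184 CPM (-0.36), while Ccnd1 had 0.19. Tnfsf11, which encodes RANKL, had 4 and 0 UMIs, Calca 30 and 10, and Tff3 had 0 in either library, too few for a comparison. The median of the targets was -0.18. Within the Fgb and Upk3a, Fxyd2, Wfdc2 and Gpx3 and Aoc1 clusters, in that order, Areg was at 0.0044, -0.30, -0.03 and 0.29 and Stc2 at -0.18, -0.43, -0.80 and 0.29, so neither kept 1 direction. Wnt5a was at -0.14 (-0.31 to 0.03), -0.19, -0.16 (-0.33 to 0.02) and -1.01 in these clusters, the last from 32 UMIs in CL, so 3 of the 4 ratios were closer to 0 than that of the class. Ccnd1 was past counting error in the Fxyd2 cluster alone (0.38), with 0.03, -0.0049 and -0.28 in the others. Wnt4 was higher in each of the 4, by 0.08 to 0.35.

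Among the other hormone receptors, Nr3c1, the glucocorticoid receptor, had 14.1 and 16.5 CPM (0.22), and Ghr, the growth hormone receptor, 15.4 and 17.9 CPM (0.22), over the whole class. Nr3c1 was at -0.19 to 0.24 in the 4 clusters, each within counting error. Ghr was past it in the Fxyd2 cluster (0.52) and the Gpx3 and Aoc1 cluster (0.98, from 18 UMIs in CL). It was within it in the Fgb and Upk3a (0.36) and Wfdc2 (0.10) clusters. Esr2 had 2 and 0 UMIs. Oxtr, the oxytocin receptor, had 6 and 9 UMIs in this class and was at 109.8 and 90.2 CPM in basal cells. The median of the cofactors was 0.05. Among them Runx1 (0.15), Xbp1 (0.11) and Cited2 (0.17) were slightly higher and Tbx3 (-0.29) and Grhl2 (-0.31) lower in the library labelled CL over the whole class. Within its clusters Cited2 was lower in the Wfdc2 cluster (-0.48, -0.73 to -0.22), Xbp1 was past counting error in the Fgb and Upk3a cluster alone (0.23), and Tbx3 was at 0.0041 in the Fxyd2 and 0.11 (-0.27 to 0.46) in the Gpx3 and Aoc1 cluster. Runx1 was at 0.01 to 0.39 in the 4 clusters, within counting error in the Wfdc2 cluster. Grhl2 was at -0.27 to -0.24 in them, past counting error in the Fxyd2 cluster alone. In secretory-lineage cells 2 of 27 related genes, Wnt5a (-0.90) and Stc2 (-0.59), were past the fold in the lower direction (5.85% of all genes) and 1, Wnt4 (0.54), in the higher (3% of all genes). In basal cells it was Socs2 (-0.64) and Wnt4 (0.57), 1 of 25 in each direction, against 8.76% of all genes lower and 3.94% higher. These counts are near the shares over all genes.

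Finally the genes with the most similar pattern were found over the 24 clusters of at least 30 cells, both libraries pooled, by Pearson correlation of log2(CPM + 10) among 6408 genes. Clusters share libraries and differ in depth, so these values are descriptions. They were Manba (r = 0.96), Ibtk and Hs3st6 for Esr1, and Rbm20 (0.98), Fzd10 and Snhg11 for Pgr. For Prlr they were Tmem56 (0.99), Ly6d and Slc12a2, for Foxa1 Aqp5 (0.97), Vill and Capsl, and for Cited1 Wfdc2 (0.98), Cldn10 and Fam25c. Gata3 had lower values, led by Bzw2 (0.89), Fam102a and Ezr. Between members, r was 0.86 to 0.95 among the other 5 genes and 0.38 to 0.61 for Gata3 with each of them.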

How the data were processed

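Cells were sorted from mouse mammary glands and sequenced with the 10x Genomics 3′ v2 kit per the labels. The kit version was not settled from the data, in which each matrix holds 6794880 barcode columns. The authors deposited raw UMI counts per gene and barcode for each library, unfiltered and not normalized, made with Cell Ranger 2.1.1 on mm10 per the submitters' processing notes, while the file headers name Cell Ranger 4. The deposited barcode lists did not index the matrix columns, so the barcodes with most UMIs, as many as each list held (7217 and 10555), were candidates. They held 82.7% and 85.7% of UMIs, down to 615 and 648 each.

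A minimum of 500 genes left 6909 and 10081 barcodes, and a mitochondrial limit of 15% of UMIs left 6297 and 9335. Doublets were scored with Scrublet at an expected 6%. Its own threshold marked 368 Ctrl but 0 CL cells, so the Ctrl threshold served both and marked 5.84% and 6.04%, a choice made after seeing the data. With scanpy 1.11.5, 2000 variable genes, 30 components, 15 neighbours and Leiden resolution 1.0 gave 29 clusters. Clusters were named from 13 marker lists if at least 3 markers were 2 times the median cluster and in 10% of cells and no other class reached 60% of the score. That scoring was set after the files were seen, so classes may differ from the study's.

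UMIs were summed per class and divided by its total to give CPM. Intervals were exact (Poisson for CPM, conditional binomial for ratios, Clopper-Pearson for shares). Cells were thinned to the 10th percentile of UMIs of their class in the shallower library, in 1 random draw. For all genes 0.5 UMI was added before the ratio. On simulated data the interval held the set ratio for 95.5% to 97.9% of changed genes per fold size in hormone-responsive cells. Those counts were Poisson draws, as the interval assumes. This checks the computation only, and not variation between cells, clusters or libraries. The members and lists were chosen with earlier results of these data known. The genes named are the 6 members, 32 related genes and the 3 genes most like each member. The value of 1 related gene is not reported here, although the gene stays in the counts over the list. Alternatives were other cell filters, clusterings, scalings and depths, and 6 were added after seeing the data, as were the levels without the 3 richest cells. Python 3.11.15, SciPy 1.17.1 and edgeR 4.0.16 (TMM factors only) were used.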

Additional observations from a re-analysis of the deposited data

Results flagged for a closer look

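Effects of opposite sign in 2 classes were found for 2 genes, and these differences between classes were not tested, since each library is a single sample. The log2 ratio of CL over Ctrl of Prlr was -0.30 in hormone-responsive luminal cells and -0.15 in secretory-lineage luminal cells, but 0.29 in basal cells. The basal value rests on few cells, since without the 3 richest cells of each library basal Prlr was at 57.6 and 57.9 CPM, nearly equal in both libraries. With them it was at 75.4 and 91.8 CPM, T and NK cells were at 72.9 and 70.6 CPM, and empty droplets at 1213 and 908 CPM. The ratio of Foxa1 was -0.10 in hormone-responsive and 0.35 in secretory-lineage cells. Within 4 of the 5 secretory-lineage clusters it was between 0.07 and 0.42, each within counting error.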

How the results depend on the processing

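No paired analysis was possible because each group has 1 library. The Foxa1 ratio in hormone-responsive cells stayed between -0.16 and -0.08 in all 12 alternatives, and the ratios of Pgr, Prlr and Gata3 stayed below 0 and that of Cited1 above 0 throughout. With clusters weighted alike in both libraries, Esr1 turned to 4.69e-05, Pgr was -0.16, Prlr -0.15, Gata3 -0.50 and Cited1 0.31. This setting leans on 34 CL cells of the Gpx3 and Aoc1 cluster. Without clusters mostly of 1 library, Esr1 was -0.22, Pgr -0.47, Prlr -0.19, Gata3 -0.497 and Cited1 0.31, so that neither Pgr nor Gata3 passed the fold of 0.5, and the limit of 80% only just took in the Fgb and Upk3a cluster (80.5% CL). With each cell named alone, Esr1 was -0.15, Prlr -0.35, Gata3 -0.65 and Cited1 0.40. The mean of each cell's CPM gave Pgr -0.77 and Prlr -0.32. Prlr and Cited1 were -0.28 and 0.49 at a mitochondrial limit of 5%, -0.27 and 0.50 with TMM factors, -0.34 and 0.37 with the mixed luminal cluster, and -0.32 and 0.57 without dividing cells. The mixed cluster, dividing cells, cluster weights, common depth, 20 thinning draws and ratios of related genes within clusters were chosen after seeing the data. Where values moved, the cause was not tested.

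The log2 ratio of the share of hormone-responsive cells with a UMI was -0.67 for Pgr, -0.46 for Gata3 and 0.30 for Cited1 at the common depth, and -0.62 for Pgr and -0.36 for Gata3 with at least 2 UMIs. In droplets of 20 to 100 UMIs, Ctrl and CL levels were 35.8 and 36.0 CPM for Esr1, 27.2 and 17.1 for Pgr, 696 and 411 for Prlr, 39.4 and 22.8 for Foxa1, 62.4 and 48.2 for Gata3 and 839 and 889 for Cited1. The percent of genes lower in CL with a minimum of 10 UMIs, with at least 1 UMI in each library, and at a fold of 1 was 9.34, 12.3 and 1.67 in hormone-responsive, 11.6, 18.1 and 0.908 in secretory-lineage and 14.7, 16.1 and 0.970 in basal cells. The percent higher was 8.08, 10.9 and 0.894, then 5.98, 7.44 and 1.13, then 8.43, 11.6 and 1.11. Among the 3 classes compared between the libraries, the fewest UMIs were those of Foxa1 in basal cells (10 and 13).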
